A study of Mus musculus with 6 samples.

Results

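The MAP kinase cascade genes of mouse pancreatic islets were compared between Bcas2 conditional knockout (cKO) and control libraries. The set was defined by name alone: protein-coding genes of the deposited table whose symbol begins with Map4k, Map3k, Map2k, Mapk or Mapkapk followed by a digit. It held 52 of the 54532 genes of the table, and 47 of the 52 reached the mean of 1 FPKM (reads scaled by library depth and by gene length in kilobases) over the 6 libraries that the test asked for. RNA-seq was made from islets, labelled as beta cells, in 3 libraries of genotype Cko and 3 control libraries of genotype wt, and BCAS2, the targeted protein, is a subunit of the Prp19 complex of the spliceosome. The design text speaks of a knockdown, and neither the Cre driver nor the deleted exons, age or sex of the mice are stated in the labels used here. The libraries are called Bcas2 cKO 3, 4 and 5 and control 1, 3 and 4 after the table's columns. No sample label carries the number 5, so that library belongs to its group by the column name only, and the labelled sample Cko1 has no column of its number. The labels do not say that libraries came from separate animals, so p-values describe the spread between libraries, which can be technical in part.

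A MAP kinase cascade passes a signal through kinases that phosphorylate each other in turn. MAP4Ks, or small GTPases in their place, act on MAP3Ks, a MAP3K activates a MAP2K, and the MAP2K activates a MAPK by phosphorylating its activation loop on a threonine and a tyrosine. MAPKs act on transcription factors and on further kinases, among them the MAPKAPKs. The ERK branch answers mainly to growth factors and, in beta cells, to glucose and calcium, while the JNK and p38 branches answer mainly to cytokines and stress. ERK3 (Mapk6) and ERK4 (Mapk4) are atypical: a serine stands alone at the site, and no MAP2K is known to phosphorylate it.

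The activation site described above tells ERK3 and ERK4, the 2 MAPKs that rose, from the classical MAPKs. The coding strand around it is shown here for Mapk6 and for 8 other MAPKs, while that of Mapk4 (ERK4) is not shown. Mapk15, counted below as atypical, has a Thr-Glu-Tyr site, so the site does not mark every atypical MAPK. Each stretch has 39 bases, read from the GENCODE M21 transcripts (GRCm38), with the codons of the site in capitals. They read Ser-Glu-Gly in Mapk6, Thr-Glu-Tyr in Mapk3, Mapk7 and Mapk15, Thr-Pro-Tyr in the JNK genes Mapk8, Mapk9 and Mapk10, and Thr-Gly-Tyr in the p38 genes Mapk14 and Mapk13. The Mapk6 stretch spans an intron, and the others lie within 1 exon.
Mapk6 (ERK3, chr9:75395622-75397584, minus strand): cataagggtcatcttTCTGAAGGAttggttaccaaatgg
Mapk3 (ERK1, chr7:126763443-126763481, plus strand): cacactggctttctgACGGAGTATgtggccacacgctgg
Mapk7 (ERK5, chr11:61491407-61491445, minus strand): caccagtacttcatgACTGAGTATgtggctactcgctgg
Mapk15 (ERK7/8, chr15:75996131-75996169, plus strand): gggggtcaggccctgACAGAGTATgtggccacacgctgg
Mapk8 (JNK1, chr14:33392988-33393026, minus strand): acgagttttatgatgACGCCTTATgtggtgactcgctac
Mapk9 (JNK2, chr11:49872815-49872853, plus strand): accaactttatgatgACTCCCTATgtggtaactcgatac
Mapk10 (JNK3, chr5:102989666-102989704, minus strand): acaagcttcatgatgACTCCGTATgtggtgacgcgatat
Mapk14 (p38 alpha, chr17:28728384-28728422, plus strand): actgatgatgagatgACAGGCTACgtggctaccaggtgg
Mapk13 (p38 delta, chr17:28776329-28776367, plus strand): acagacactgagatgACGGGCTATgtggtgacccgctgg

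Of the 47 genes tested, 11 rose in Bcas2 cKO, none fell and 36 did not pass the test (limma on log2(FPKM + 1), Benjamini-Hochberg adjusted p under 0.05 over the 13723 genes tested). Over all genes tested, 6.97% rose and 7.55% fell, 14.5% in either direction. At an unadjusted p under 0.05, 14 of the 47 were higher and 3 lower, and voom on the recovered reads called 12 higher and none lower. The median log2 fold change was 0.10 over the 47, against -0.03 over all genes tested. In the limma fit above, the rises were spread over every kinase tier. They comprised 3 of 4 tested MAP4Ks, 4 of 15 MAP3Ks, 1 of 7 MAP2Ks, 2 of 13 MAPKs and 1 of 3 MAPKAPKs, but none of 5 tested proteins that carry a kinase's name without being kinases. All Bcas2 cKO values lay above all control values in 16 of the 47 and below them in 8, where the shares over all genes tested were 16.8% and 21.1%. Fewer genes rose, 5 of the 11, when FPKM was rescaled to equal totals without the hormone genes. Under that scaling the median over all genes was -0.12, and 613 genes were called higher and 1247 lower, where the deposited scaling gave 957 and 1036. The 5 were Map4k2, Map3k5, Mapk4, Map3k8 and Map3k20, with none in the MAP2K or MAPKAPK tier. Without Bcas2 cKO 3, 4 or 5 the genes that rose numbered 4, 5 and 4, and without control 1, 3 or 4 they numbered 8, 6 and 5.

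**Figure D1:**
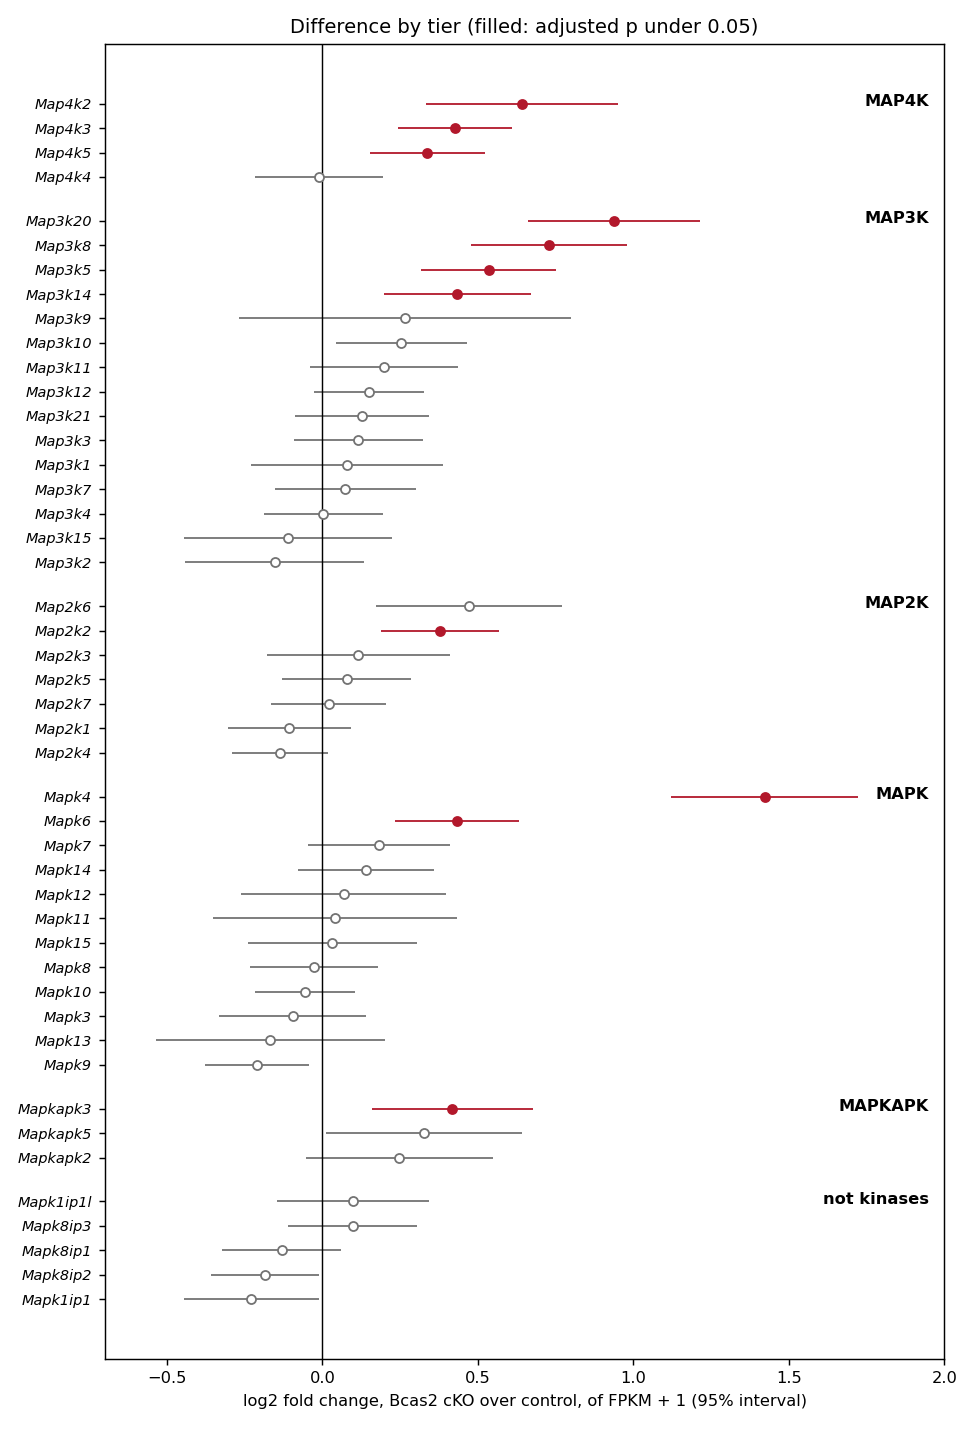
Log2 fold change of FPKM + 1, Bcas2 cKO over control, for 46 tested genes in 5 kinase tiers and the group of proteins that are not kinases; bars are 95% intervals from limma and filled red points passed at an adjusted p under 0.05. The 11 filled points all lie right of 0, with Mapk4 at 1.42 the farthest.

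Depth was 16351800 to 16904326 recovered reads per Bcas2 cKO library and 15170439 to 15594871 per control library. Bcas2 was 8.76, 8.3998 and 9.14 FPKM in Bcas2 cKO 3, 4 and 5, against 10.3, 15.04 and 11.2 FPKM in control 1, 3 and 4, with no overlap, and did not pass the test (limma adjusted p 0.083). The insulin genes Ins1 and Ins2, which mark the labelled beta cells, took 13.3 to 14.6% of reads in Bcas2 cKO and 18.5 to 26.7% in control. Summed FPKM of 10 beta cell markers was 108887 to 128742 in Bcas2 cKO and 166105 to 265527 in control. Most of this sum came from Ins1, Ins2 and Iapp, which were not called (limma adjusted p 0.44, 0.38 and 0.059). Of the 10, 3 fell (Slc30a8, Ucn3 and Slc2a2), while Mafa was higher in every Bcas2 cKO library without being called. Over all genes tested, 6.97% rose and 7.55% fell. For 8 alpha, delta and PP cell markers the sum was 34141 to 37776 in Bcas2 cKO and 29946 to 35608 in control. Of the 8, 2 rose (Irx1 and Irx2). Gcg was higher in every Bcas2 cKO library without being called, while Sst and Ttr had lower means in Bcas2 cKO. The share of reads of these 8 did not overlap, at 4.35 to 4.80% in Bcas2 cKO and 3.48 to 3.64% in control. For 19 immediate early genes, which respond within minutes to stimulation or handling of cells, the sum was 5291 to 6721 FPKM in Bcas2 cKO and 848 to 2276 FPKM in control, and 17 of 18 tested rose. For 19 acinar markers the sum was 14854 to 44920 FPKM in Bcas2 cKO and 5048 to 12007 FPKM in control. Of the 19, 8 rose by limma, voom called 19, and all 19 were higher in every Bcas2 cKO library. For 10 ductal markers it was 512 to 654 FPKM in Bcas2 cKO and 258 to 311 FPKM in control, and 2 of 8 tested rose (Krt8 and Krt18). For 9 stellate and fibroblast markers it was 18.4 to 37.3 FPKM in Bcas2 cKO and 16.2 to 17.2 FPKM in control (1 of 8 tested rose). For 13 macrophage and lymphocyte markers the sums overlapped, at 254 to 332 FPKM in Bcas2 cKO and 194 to 259 FPKM in control. Their share of reads did not, at 0.0376 to 0.0523% in Bcas2 cKO and 0.0258 to 0.0323% in control. Of 10 tested, 5 rose (C1qb, C1qc, Cd68, Cd14 and Adgre1). At an unadjusted limma p under 0.05, 8 were higher and 1 lower. The lower one was the lymphocyte marker Cd79a, at 3.40, 6.86 and 6.09 FPKM in Bcas2 cKO and 6.97, 14.4 and 8.08 FPKM in control. The sums overlapped too for 9 endothelial markers, 116 to 152 FPKM in Bcas2 cKO and 117 to 142 FPKM in control (none of 9 called by limma, 0 at an unadjusted p under 0.05, 0 called by voom). No marker of these lists was at 0 in every library. Their part in the results on the MAP kinase cascade was not tested. In bulk RNA, fewer cells of a type and less RNA per cell cannot be told apart.

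Among the MAP4Ks, STE20-like kinases at the head of the cascade, 3 rose and the fourth was nearly equal in both groups. Map4k2 (an activator of JNK signalling downstream of TNF receptors; ENSMUSG00000024948, chromosome 19, 6341135 to 6355615, GRCm38) had 14.5, 18.2 and 15.2 FPKM in Bcas2 cKO 3, 4 and 5, against 11.4, 10.1 and 8.32 FPKM in control 1, 3 and 4 (limma log2 fold change 0.64 ± 0.13 SE, adjusted p 0.023). The groups did not overlap, and Bcas2 cKO 4 was the highest library. Map4k3 (GLK, which also links amino acids to mTORC1) was 15.5, 13.97 and 14.6 FPKM in Bcas2 cKO and 10.03, 10.7 and 11.3 FPKM in control (limma log2 fold change 0.43 ± 0.08 SE, adjusted p 0.016). Map4k5 was 7.37, 7.37 and 7.02 FPKM in Bcas2 cKO and 5.12, 5.54 and 5.97 FPKM in control (limma log2 fold change 0.34 ± 0.08 SE, adjusted p 0.033). Both were higher in every Bcas2 cKO library than in any control library. Map4k4, a kinase of the Misshapen group, was 9.69 ± 0.794 FPKM in Bcas2 cKO and 9.76 ± 0.638 FPKM in control (SD, n = 3 each), with a 95% interval of the log2 fold change of -0.22 to 0.20. Map4k1, a kinase of blood cells, had 0.681, 0.406 and 0.584 FPKM in Bcas2 cKO and 0.471, 0.217 and 0.619 FPKM in control, below the level tested. Summed over the 5 MAP4Ks, the level was 47.2 to 48.8 FPKM in Bcas2 cKO and 35.8 to 36.7 FPKM in control. Map4k2 lost its call without Bcas2 cKO 4 or 5 or control 3 or 4 (limma adjusted p 0.056 to 0.069), Map4k3 without Bcas2 cKO 3 or 5 (limma adjusted p 0.056 to 0.068), and Map4k5 whichever library was left out (limma adjusted p 0.054 to 0.11). Exons of Map4k5 share 6.36% of their bases with Atl1 on the opposite strand.

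The MAP3Ks, which receive signals from receptors, GTPases and stress, held 4 of the 11 rises. Map3k20 (ZAK, a kinase that binds ribosomes and starts JNK and p38 signalling when they stall; ENSMUSG00000004085, chromosome 2, 72285637 to 72442610, GRCm38) had 2.25, 2.24 and 2.72 FPKM in Bcas2 cKO and 0.787, 0.794 and 0.743 FPKM in control. These values rest on 402 to 478 reads per Bcas2 cKO library and 109 to 127 reads per control library. Control values were close to each other, and every Bcas2 cKO value was well above them (limma log2 fold change 0.94 ± 0.12 SE, adjusted p 0.0049). Its ratio of means was 3.11. Map3k8 (TPL2 or COT, the MAP3K that carries TNF and Toll-like receptor signals to ERK; ENSMUSG00000024235, chromosome 18, 4331327 to 4353015, GRCm38) had 2.34, 2.296 and 2.37 FPKM in Bcas2 cKO and 1.05, 0.905 and 1.09 FPKM in control, on 182 to 191 reads per Bcas2 cKO library and 55 to 75 per control library. That is a ratio of means of 2.301, with the groups far apart relative to their spread (limma log2 fold change 0.73 ± 0.11 SE, adjusted p 0.0081). The calls of Map3k20 and Map3k8 were kept without each library in turn. Map3k20 had a mean below 1 FPKM in control and reached the level tested through its Bcas2 cKO values.

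Map3k5 (ASK1, a kinase activated by oxidative and endoplasmic reticulum stress; ENSMUSG00000071369, chromosome 10, 19934472 to 20142753, GRCm38) was 10.9, 10.2 and 10.9 FPKM in Bcas2 cKO and 6.19, 7.27 and 7.696 FPKM in control (limma log2 fold change 0.53 ± 0.09 SE, adjusted p 0.013). All 3 Bcas2 cKO values exceeded the highest control value. Map3k14 (NIK, which starts non-canonical NF-kB signalling rather than a MAPK branch) was 3.299, 2.85 and 3.08 FPKM in Bcas2 cKO and 1.97, 2.26 and 1.83 FPKM in control (limma log2 fold change 0.43 ± 0.10 SE, adjusted p 0.033). Again the groups did not overlap. Map3k5 lost its call narrowly without Bcas2 cKO 3 or 5 (limma adjusted p 0.05005 to 0.053), and Map3k14 without Bcas2 cKO 3 or 4 or 5 or control 1 or 4 (limma adjusted p 0.062 to 0.11).

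The MAP3K of highest level did not pass the test. Map3k15 (ASK3, a relative of ASK1 that answers to osmotic stress in kidney cells) had 75.9, 66.9 and 78.8 FPKM in Bcas2 cKO and 68.3, 76.7 and 96.4 FPKM in control, so the groups overlapped (log2 fold change -0.11, 95% interval -0.45 to 0.22). It held 37.2 to 42.2% of the summed FPKM of the 18 MAP3Ks in Bcas2 cKO and 41.7 to 49.5% in control. Its exons share 603 bases with those of Pdha1 on the opposite strand, and whether reads were counted by strand is not stated; Map3k10 and Map3k12 likewise share 14.8% and 17.5% of their exonic bases with Ttc9b and Pcbp2. Among the mixed-lineage kinases, which activate JNK, Map3k10 (MLK2) was 16.7 ± 1.34 FPKM in Bcas2 cKO and 13.8 ± 0.914 FPKM in control (SD, n = 3 each; log2 fold change 0.25, limma adjusted p 0.10) with no overlap. Map3k11 (MLK3) was 16.1 ± 1.84 FPKM in Bcas2 cKO and 13.9 ± 0.918 FPKM in control. Map3k9 (MLK1) was 1.89 ± 0.1801 FPKM in Bcas2 cKO and 1.47 ± 0.718 FPKM in control, and Map3k21 (MLK4) averaged 5.23 ± 0.329 FPKM in Bcas2 cKO and 4.71 ± 0.487 FPKM in control; these 3 overlapped between groups. Map3k12 (DLK, a kinase of neuronal and beta cell stress) was 4.55 ± 0.177 FPKM in Bcas2 cKO and 3.996 ± 0.186 FPKM in control, without overlap and without passing the test (limma adjusted p 0.22). None of these 5 passed, and all 5 fold changes were positive.

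The remaining tested MAP3Ks overlapped between groups and were not called. Map3k7 (TAK1, which serves IL-1, TNF and TGF-beta receptors) was 12.98 ± 0.2696 FPKM in Bcas2 cKO and 12.3 ± 1.47 FPKM in control, with a 95% interval of its log2 fold change of -0.15 to 0.30. Map3k4 was 4.97 ± 0.332 FPKM in Bcas2 cKO and 4.96 ± 0.281 FPKM in control. Map3k1 (MEKK1) was 6.23 ± 0.762 FPKM in Bcas2 cKO and 5.86 ± 0.953 FPKM in control. Of the MAP3Ks of the ERK5 branch, Map3k2 was 7.84 ± 0.954 FPKM in Bcas2 cKO and 8.84 ± 1.19 FPKM in control, whereas Map3k3 averaged 13.9 ± 1.36 FPKM in Bcas2 cKO and 12.7 ± 0.496 FPKM in control. Of the 3 MAP3Ks below the level tested, Map3k6 (ASK2) had 0.958, 0.852 and 1.01 FPKM in Bcas2 cKO and 0.753, 0.306 and 0.444 FPKM in control. Map3k13 (LZK) had 0.727, 0.691 and 0.586 FPKM in Bcas2 cKO and 0.434, 0.315 and 0.3203 FPKM in control. The groups of both lay apart, but neither was called when all genes with a mean above 0 were tested (limma adjusted p 0.24 and 0.17). Map3k19 had 0.948, 0.756 and 0.665 FPKM in Bcas2 cKO and 0.813, 0.425 and 0.404 FPKM in control, which overlapped.

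**Figure D2:**
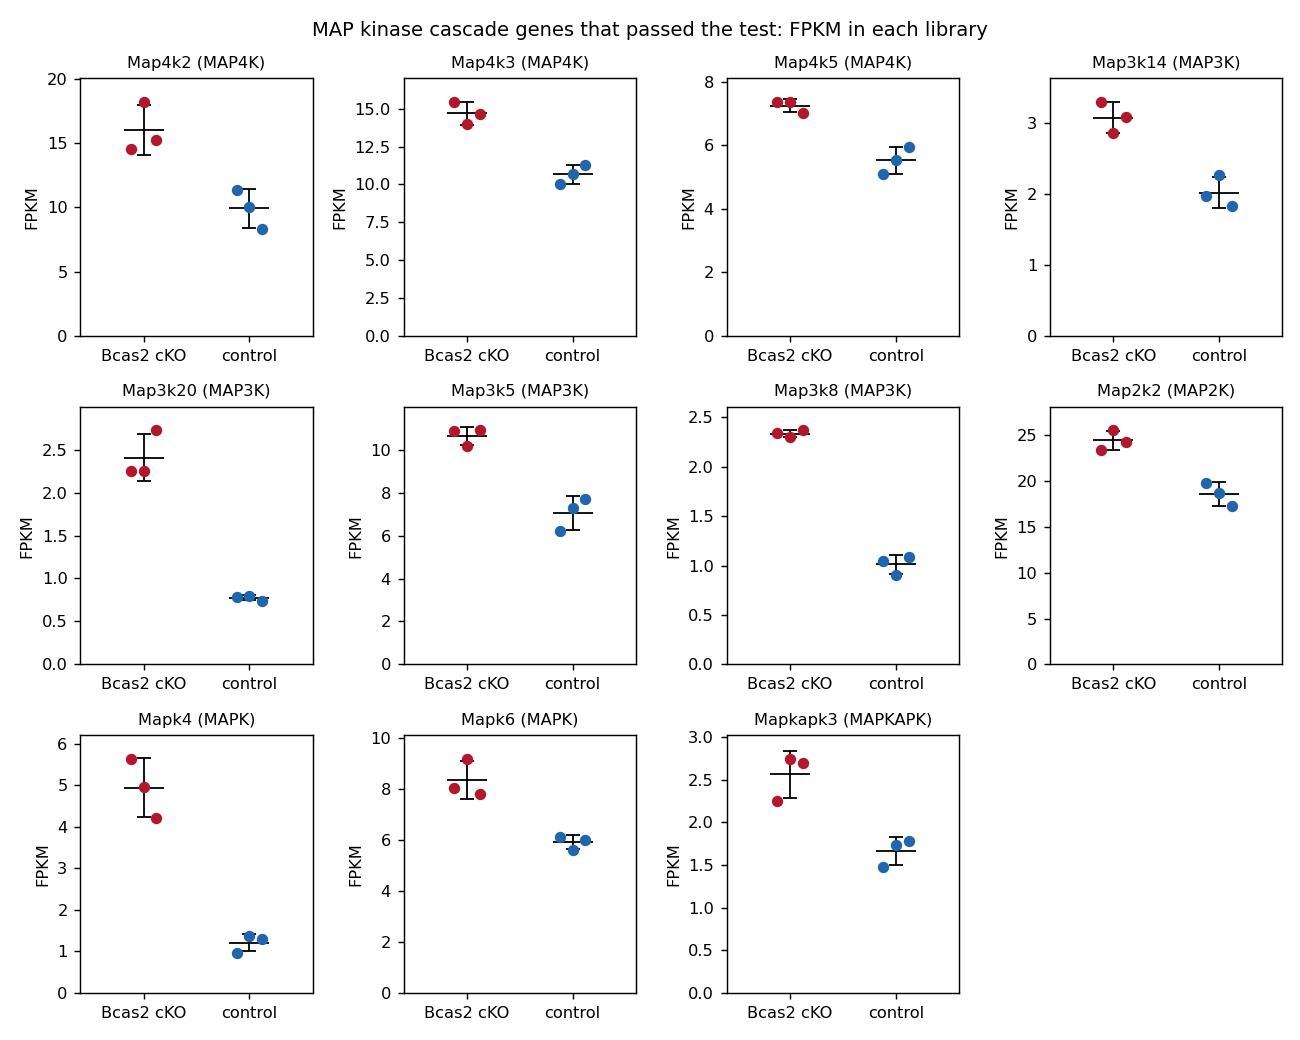
FPKM of the 11 genes that rose, 1 panel a gene, with the 3 Bcas2 cKO libraries in red on the left and the 3 control libraries in blue on the right; bars are the mean and SD, and each vertical axis starts at 0. In every panel all red points lie above all blue points, and Mapk4, Map3k20 and Map3k8 have the widest gaps relative to their level.

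In the MAP2K tier only Map2k2 passed the test. Map2k1 and Map2k2 encode MEK1 and MEK2, which phosphorylate the classical ERKs. Map2k2 had 23.4, 25.5 and 24.3 FPKM in Bcas2 cKO and 19.8, 18.7 and 17.3 FPKM in control (limma log2 fold change 0.38 ± 0.08 SE, adjusted p 0.026). Map2k1 had 18.8, 19.3 and 19.7 FPKM in Bcas2 cKO and 19.9, 23.005 and 19.8 FPKM in control (limma log2 fold change -0.11, adjusted p 0.43). The groups of both genes did not overlap, with opposite directions, and Map2k1 was not called. Map2k2 exceeded Map2k1 in each Bcas2 cKO library, with FPKM ratios of 1.25, 1.32 and 1.23, and was level with it or below it in control, with ratios of 0.997, 0.811 and 0.875. Map2k2 lost its call without Bcas2 cKO 3 or 4 or 5 or control 3 or 4 (limma adjusted p 0.056 to 0.084).

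Map2k3 and Map2k6 encode MKK3 and MKK6, the activators of p38. Map2k6 had 2.22, 1.67 and 1.75 FPKM in Bcas2 cKO and 1.04, 1.16 and 1.01 FPKM in control, without overlap, on 101 to 139 reads per Bcas2 cKO library and 51 to 57 per control library. Its adjusted p was just above the threshold (limma log2 fold change 0.47 ± 0.13 SE, adjusted p 0.051), and it passed in 6 other settings of the fit. Map2k3 was 5.56 ± 0.871 FPKM in Bcas2 cKO and 5.04 ± 0.625 FPKM in control (SD, n = 3 each; log2 fold change 0.12). For JNK, Map2k4 (MKK4) was 8.495 ± 0.1804 FPKM in Bcas2 cKO and 9.43 ± 0.184 FPKM in control, lower in every Bcas2 cKO library (log2 fold change -0.14, limma adjusted p 0.21). Map2k7 (MKK7) was 16.5 ± 0.3797 FPKM in Bcas2 cKO and 16.3 ± 1.18 FPKM in control, with a 95% interval of -0.16 to 0.21 on the log2 scale; 35.2% of its exonic bases also belong to Gm49320. Map2k5, the activator of ERK5, was 5.31 ± 0.478 FPKM in Bcas2 cKO and 4.97 ± 0.285 FPKM in control.

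In the MAPK tier the atypical kinases ERK4 and ERK3 rose, and none of the other 11 MAPKs was called. Mapk4 (ERK4; ENSMUSG00000024558, chromosome 18, 73928486 to 74065359, GRCm38) had 5.63, 4.97 and 4.22 FPKM in Bcas2 cKO and 0.969, 1.37 and 1.298 FPKM in control, on 393 to 552 reads per Bcas2 cKO library and 83 to 103 per control library. The groups lay far apart. With a ratio of means of 4.07, it was the largest difference among the 52 genes (limma log2 fold change 1.42 ± 0.13 SE, adjusted p 0.0021), and its call was kept without each library in turn. Mapk6 (ERK3; ENSMUSG00000042688, chromosome 9, 75369062 to 75410005, GRCm38) had 8.04, 9.202 and 7.82 FPKM in Bcas2 cKO and 6.12, 5.605 and 6.02 FPKM in control (limma log2 fold change 0.43 ± 0.08 SE, adjusted p 0.02). Every Bcas2 cKO library was above every control library, but the call was lost without Bcas2 cKO 3 or 4 or control 3 or 4 (limma adjusted p 0.053 to 0.061). The FPKM ratio of Mapk4 to Mapk6 was 0.701, 0.540 and 0.540 in Bcas2 cKO 3, 4 and 5, against 0.158, 0.245 and 0.216 in control 1, 3 and 4. Mapkapk5 (MK5 or PRAK), the kinase that ERK3 and ERK4 bind and activate, had 2.16, 2.72 and 2.11 FPKM in Bcas2 cKO and 1.58, 1.39 and 2.003 FPKM in control. It was higher in every Bcas2 cKO library but was not called (limma log2 fold change 0.33 ± 0.13 SE, adjusted p 0.15). Of its exonic bases 56.5% also belong to Adam1a, annotated on the same strand, so its reads are uncertain.

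Mapk3 and Mapk15 had the highest levels among the MAPKs, and neither passed the test. Mapk3 (ERK1; ENSMUSG00000063065, chromosome 7, 126759601 to 126765819, GRCm38) had 78.7, 78.997 and 92.97 FPKM in Bcas2 cKO and 90.6, 93.1 and 83.9 FPKM in control, the highest mean of the 52 genes. The groups overlapped, and the 95% interval of the log2 fold change was -0.33 to 0.14. Mapk15 (ERK7/8, an atypical ERK linked to autophagy and cilia), the MAPK of next highest level after Mapk3, had 34.2, 37.98 and 44.5 FPKM in Bcas2 cKO and 36.3, 41.1 and 36.3 FPKM in control, which overlapped (interval -0.24 to 0.30). Mapk7 (ERK5) was 4.99 ± 0.2497 FPKM in Bcas2 cKO and 4.29 ± 0.526 FPKM in control (SD, n = 3 each), higher in every Bcas2 cKO library but not called (limma log2 fold change 0.18 ± 0.10 SE, adjusted p 0.25).

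The JNK and p38 kinases were not called either. Mapk9 (JNK2) had 9.35, 9.41 and 8.87 FPKM in Bcas2 cKO and 10.6, 11.4 and 10.5 FPKM in control, lower in every Bcas2 cKO library (limma log2 fold change -0.21 ± 0.07 SE, adjusted p 0.095). Mapk8 (JNK1) was 2.62 ± 0.172 FPKM in Bcas2 cKO and 2.69 ± 0.0947 FPKM in control (SD, n = 3 each), while Mapk10 (JNK3, the isoform of neurons and beta cells) averaged 5.32 ± 0.0753 FPKM in Bcas2 cKO and 5.56 ± 0.183 FPKM in control, also lower in every Bcas2 cKO library. Of the p38 genes Mapk14 (p38 alpha) had by far the highest level, 24.2 ± 1.38 FPKM in Bcas2 cKO and 21.9 ± 2.098 FPKM in control (log2 fold change 0.14, 95% interval -0.08 to 0.36). Mapk11 (p38 beta) was 1.62 ± 0.237 FPKM in Bcas2 cKO and 1.57 ± 0.502 FPKM in control. Mapk12 (p38 gamma) was 2.15 ± 0.359 FPKM in Bcas2 cKO and 2.001 ± 0.3702 FPKM in control. Mapk13 (p38 delta, a kinase that restrains insulin secretion in mice) was 1.799 ± 0.469 FPKM in Bcas2 cKO and 2.12 ± 0.309 FPKM in control, and all 4 p38 genes overlapped between groups.

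**Figure D3:**
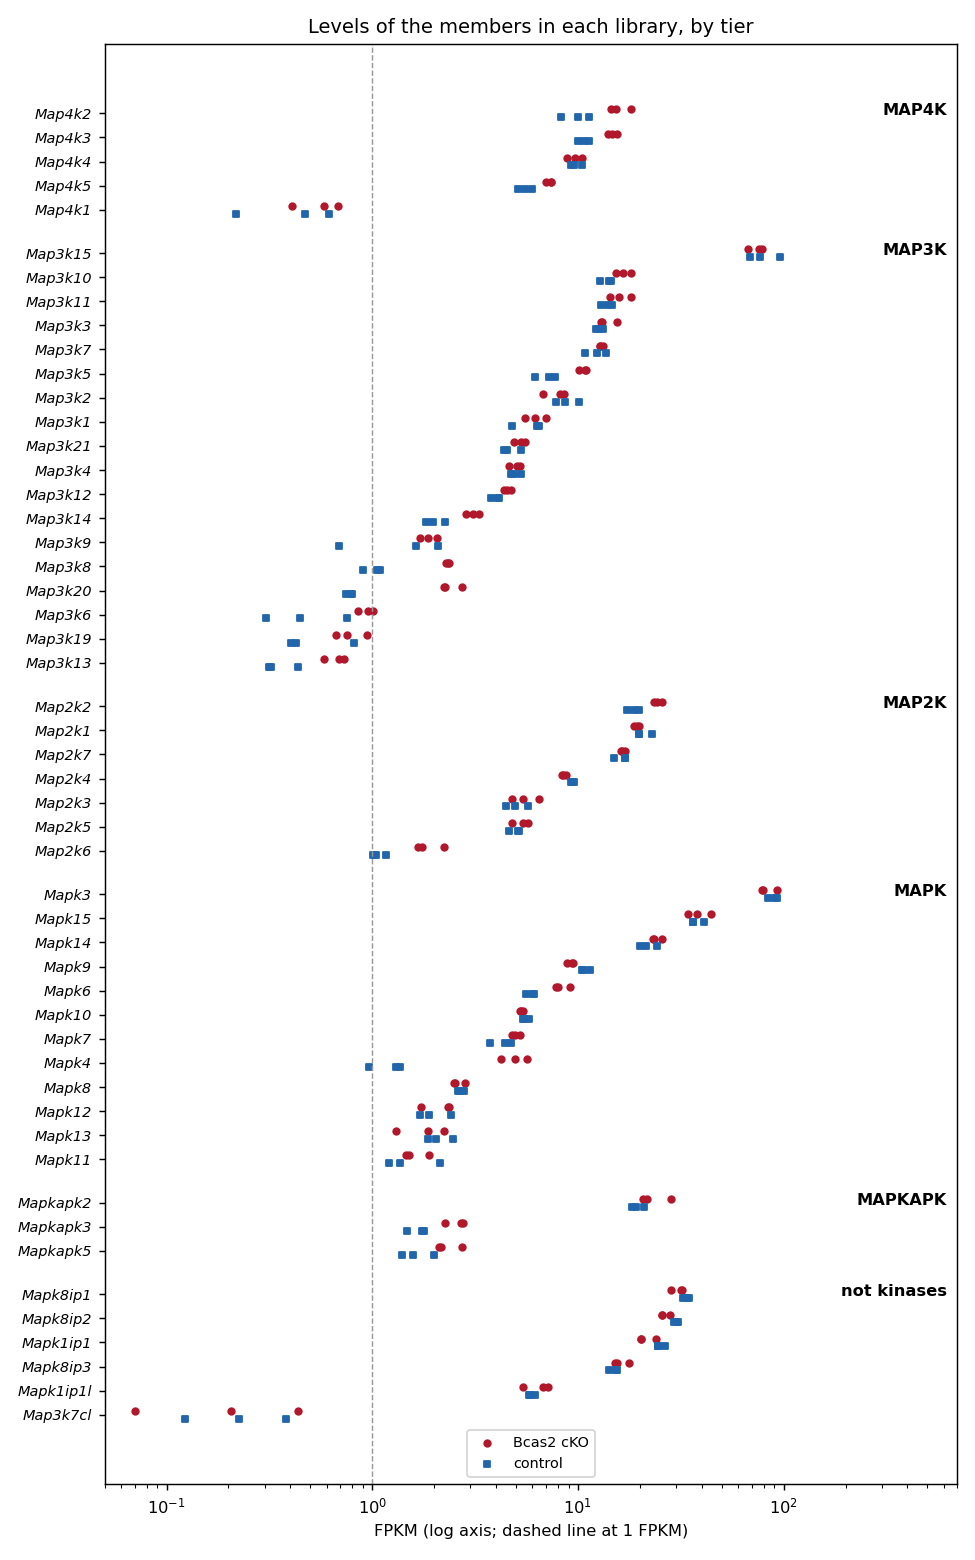
FPKM of 51 genes in each library on a log axis, ordered by mean level within each tier, with Bcas2 cKO as red circles above control as blue squares; the dashed line marks 1 FPKM. Mapk3 and Map3k15 have the highest levels, with overlapping groups, while Mapk4, Map3k8 and Map3k20 are far lower in level and separate clearly.

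MAPKAPKs are kinases switched on by MAPKs. Mapkapk2 (MK2, the p38 target that stabilises cytokine mRNAs through tristetraprolin) had 21.7, 28.2 and 20.7 FPKM in Bcas2 cKO and 18.2, 21.02 and 19.3 FPKM in control. The groups overlapped slightly (limma log2 fold change 0.25 ± 0.13 SE, adjusted p 0.23). Mapkapk3 (MK3, its close relative) had 2.25, 2.75 and 2.699 FPKM in Bcas2 cKO and 1.48, 1.74 and 1.78 FPKM in control, without overlap. It passed narrowly (limma log2 fold change 0.42 ± 0.11 SE, adjusted p 0.047) and lost its call whichever library was left out (limma adjusted p 0.077 to 0.14). Mapkapk2 held 81.2 to 83.8% of the summed FPKM of the tier in Bcas2 cKO and 83.6 to 87.0% in control.

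Of the 3 JNK scaffolds tested, 2 were lower in every Bcas2 cKO library and none was called. Mapk8ip1 (JIP1 or IB1, which assembles a MAP3K, a MAP2K and JNK and is abundant in beta cells) had 28.3, 32.2 and 31.7 FPKM in Bcas2 cKO and 33.9, 34.8 and 32.4 FPKM in control. Mapk8ip2 (JIP2) had 25.7, 28.02 and 25.6 FPKM in Bcas2 cKO and 30.8, 30.4 and 29.3 FPKM in control. Their limma adjusted p-values were 0.31 and 0.14. Mapk8ip3 (JIP3, a motor adaptor) was 16.1 ± 1.47 FPKM in Bcas2 cKO and 14.98 ± 0.733 FPKM in control (SD, n = 3 each), with 10.7% of its exonic bases shared with Eme2. Mapk1ip1 was 21.4 ± 2.14 FPKM in Bcas2 cKO and 25.2 ± 1.19 FPKM in control, lower in every Bcas2 cKO library (limma log2 fold change -0.23 ± 0.09 SE, adjusted p 0.14). Mapk1ip1l was 6.44 ± 0.889 FPKM in Bcas2 cKO and 5.92 ± 0.206 FPKM in control. Map3k7cl, which resembles the C-terminal end of TAK1, had 0.434, 0.206 and 0.0702 FPKM in Bcas2 cKO and 0.382, 0.224 and 0.124 FPKM in control, on at most 13 reads per library.

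Read by branch, 2 of 7 genes of the ERK branch (Map3k8 and Map2k2) and 1 of 8 of the p38 branch (Mapkapk3) rose. None of the 13 tested genes assigned to the JNK branch alone was called. That count leaves out the MAP3Ks shared with p38 and the MAP4Ks, which are given apart below. Over all genes tested, 6.97% rose and 7.55% fell. Map4k2, an activator of JNK signalling, was counted with the MAP4Ks, of which 3 of 4 tested rose. Map3k14, which also rose, was counted outside these branches. Among 6 tested MAP3Ks that serve both JNK and p38, 2 rose (Map3k5 and Map3k20), and 2 rose among 4 genes, the atypical MAPKs Mapk4, Mapk6 and Mapk15 and the kinase Mapkapk5. The JNK branch had a median log2 fold change of 0.02 and 3 genes at an unadjusted p under 0.05 (limma), with Mapk9 and Mapk8ip2 lower and Map3k10 higher. None of the 4 genes of the ERK5 branch was called or reached an unadjusted p under 0.05. Many MAP3Ks act on several branches, so the assignment follows the best known use of each. Differences between branches or tiers were not tested.

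Genes that feed, restrain or follow the cascade without carrying its names were counted from lists of the pathway's parts. There, 20 of 99 tested rose and 3 fell, where 6.97% of all genes tested rose and 7.55% fell. The lists were chosen with earlier results of these data known, and the count depends on what was listed. Of the 20 rises, 11 were among transcription factors and 4 among phosphatases. The median log2 fold change of the 99 was 0.09. Of 23 transcription factors that MAPKs phosphorylate or induce, 11 rose and none fell (limma; none lower at an unadjusted p under 0.05 either). Fos had 1285, 1527 and 1480 FPKM in Bcas2 cKO and 236, 569.6 and 544 FPKM in control (limma log2 fold change 1.77 ± 0.34 SE, adjusted p 0.019). Fos encodes a subunit of AP-1. The groups did not overlap, and control 1 was the lowest library for Fos. It was also the lowest for Junb, Fosb, Jun, Egr1, Fosl2, Jund, Fosl1 and Srf, but not for Ets2 or Trp53. Log2 fold changes were 2.34 for Junb, 2.28 for Fosb, 1.61 for Jun, 1.56 for Egr1, 1.54 for Fosl2, 1.20 for Jund and 1.07 for Fosl1. Srf, the factor through which ERK-activated Elk proteins act, rose by 1.01 on the log2 scale, Ets2 by 0.68 and Trp53 by 0.58. Fos, Fosb, Jun, Junb and Egr1 are also in the immediate early list, whose sum separated the groups, and its part in these rises was not tested. Fos lost its call without Bcas2 cKO 3 or 4 or 5 (limma adjusted p 0.051 to 0.067), Fosb without Bcas2 cKO 3 or 4 or 5 or control 3 (limma adjusted p 0.066 to 0.11), Jun without Bcas2 cKO 3 or 4 or 5 or control 4 (limma adjusted p 0.057 to 0.099) and Egr1 without Bcas2 cKO 3 or 4 or 5 or control 4 (limma adjusted p 0.06 to 0.098). Jund lost its call without Bcas2 cKO 4 or 5 or control 4 (limma adjusted p 0.078 to 0.092) and Trp53 without Bcas2 cKO 3 or 4 or control 3 or 4 (limma adjusted p 0.051 to 0.064). With no filter beyond a mean above 0, Fos, Fosb, Jun, Egr1 and Jund were not called (limma adjusted p 0.078 to 0.11), nor were Fos, Fosb and Jun with quantile normalization (0.054 to 0.069).

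Among 10 tested dual specificity phosphatases that switch MAPKs off, 4 rose and none fell by limma, and none was lower at an unadjusted p under 0.05. Over all genes tested, 6.97% rose and 7.55% fell. Dusp5, a nuclear ERK phosphatase, had 63.8, 75.9 and 73.1 FPKM in Bcas2 cKO and 16.7, 23.8 and 15.2 FPKM in control (limma log2 fold change 1.90 ± 0.17 SE, adjusted p 0.002). Dusp1, which acts on JNK and p38, had 355, 398 and 415 FPKM in Bcas2 cKO and 58.7, 137 and 126 FPKM in control (limma log2 fold change 1.94 ± 0.31 SE, adjusted p 0.011). Dusp6, the cytoplasmic ERK phosphatase, had 11.3, 9.45 and 9.52 FPKM in Bcas2 cKO and 6.12, 6.34 and 5.48 FPKM in control (limma log2 fold change 0.67 ± 0.10 SE, adjusted p 0.008). The groups lay apart for all 3, and Dusp2 rose as well, with a log2 fold change of 0.86, losing its call without Bcas2 cKO 4 or control 4 (limma adjusted p 0.064 to 0.069). Dusp2 had a mean of 0.5704 FPKM in control and reached the level tested through its Bcas2 cKO values; it was below that level without Bcas2 cKO 3, and was not called with no filter beyond a mean above 0 (limma adjusted p 0.059). Dusp1 is also in the immediate early list, whose part in its rise was not tested. Gadd45g and Gadd45a, whose proteins bind and activate MAP3K4, rose by 1.18 and 1.16 on the log2 scale, on a list of 17 tested kinases, adaptors and activators in which limma called no other gene; voom called 4 of the list. The level of Gadd45g was 178 ± 16.4 FPKM in Bcas2 cKO and 78.2 ± 9.52 FPKM in control (SD, n = 3 each).

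Of 21 tested Ras and Raf genes, which feed the ERK branch, 1 rose and 2 fell, where 6.97% of all genes tested rose and 7.55% fell. Rasgrp1, a calcium- and diacylglycerol-responsive Ras exchange factor, rose to 2.48, 1.72 and 1.605 FPKM in Bcas2 cKO, against 0.169, 0.225 and 0.511 FPKM in control (limma log2 fold change 1.17 ± 0.18 SE, adjusted p 0.01). Rasgrf1, the calmodulin-dependent exchange factor of neurons and beta cells, fell to 9.47, 11.7 and 9.09 FPKM in Bcas2 cKO, against 19.6, 17.99 and 21.9 FPKM in control (limma log2 fold change -0.92 ± 0.12 SE, adjusted p 0.0051). Araf, a Raf kinase that feeds MEK, fell to 37.4, 35.6 and 36.4 FPKM in Bcas2 cKO, against 48.7, 49.6 and 48.2 FPKM in control (limma log2 fold change -0.41 ± 0.07 SE, adjusted p 0.013). The groups did not overlap for any of the 3. Of 12 tested inhibitors of Ras and ERK signalling, Errfi1, a feedback inhibitor of the EGF receptor, rose (log2 fold change 1.30) and Pea15a, which holds ERK in the cytoplasm, fell (log2 fold change -0.32). Of 7 tested kinases downstream of MAPKs, Mknk2, which phosphorylates the translation factor eIF4E, rose (log2 fold change 0.42). The median of the 7 was -0.15, with 3 lower and 2 higher in every Bcas2 cKO library than in any control library. None of 9 tested scaffolds outside the naming rule was called by limma (3 at an unadjusted p under 0.05), and voom called 1, Lamtor1. Araf lost its call without Bcas2 cKO 3 (limma adjusted p 0.051), Errfi1 without Bcas2 cKO 3 or 4 or control 3 or 4 (limma adjusted p 0.05047 to 0.078) and Mknk2 without Bcas2 cKO 3 or 5 or control 4 (limma adjusted p 0.053 to 0.056). Pea15a lost its call whichever library was left out (limma adjusted p 0.057 to 0.12), and Rasgrp1, with a mean of 0.301 FPKM in control, reached the level tested through its Bcas2 cKO values and was below it without Bcas2 cKO 3 or 4. Under 12 other settings of the fit, Errfi1, Mknk2 and Trp53 were each called in 11. Errfi1 was not called with no filter beyond a mean above 0 (limma adjusted p 0.078). Of the 23 calls, 11 were kept without each library in turn: Rasgrf1, Dusp1, Dusp5, Dusp6, Gadd45g, Gadd45a, Junb, Srf, Ets2, Fosl2 and Fosl1.

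**Figure D4:**
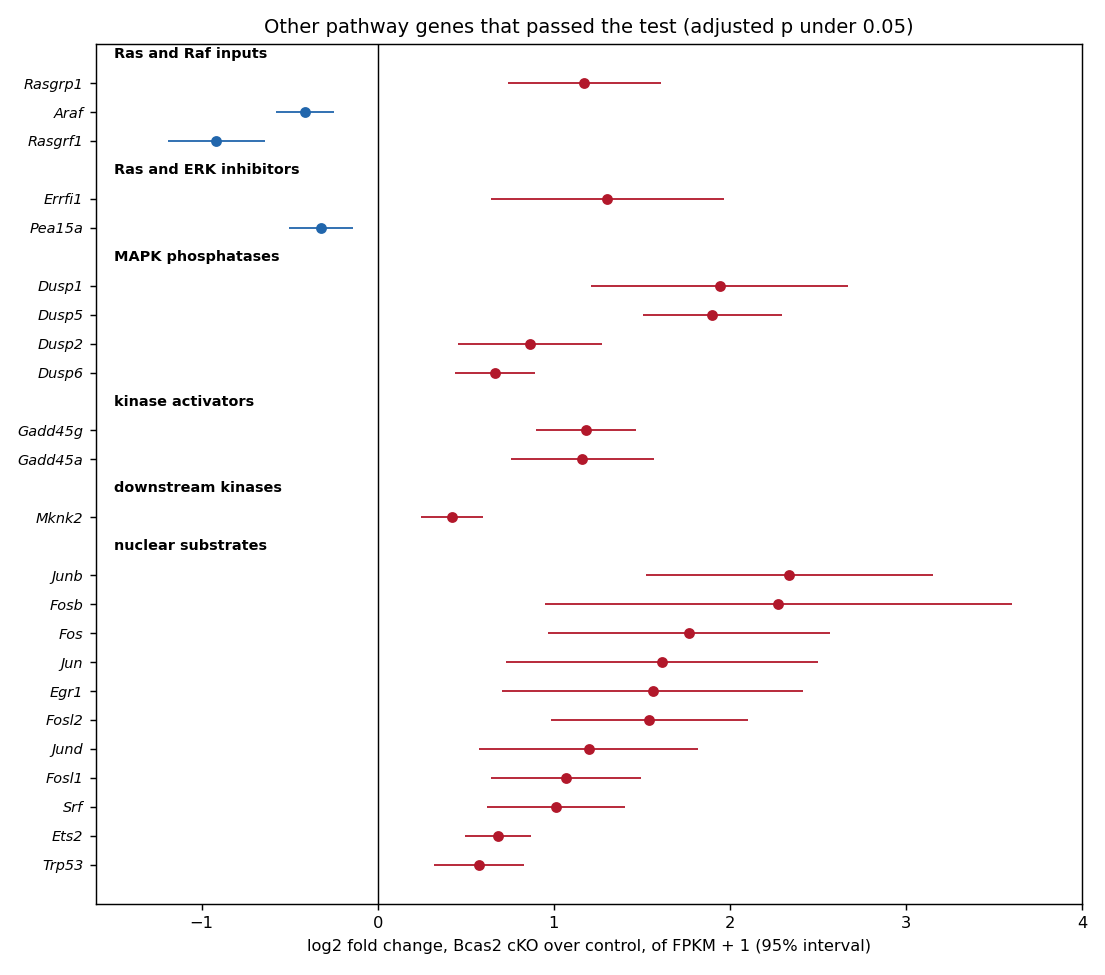
Log2 fold change of FPKM + 1, Bcas2 cKO over control, with 95% limma intervals, for the 23 listed pathway genes outside the naming rule that passed the test; red points are higher and blue points lower in Bcas2 cKO. The transcription factors and phosphatases all lie right of 0, and the 3 blue points are Araf, Rasgrf1 and Pea15a.

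Promoters of the genes that rose were searched on both strands for sites of the factors above, from 250 bases before to 50 after the start (RefSeq, GRCm38.p6). Entries were matched for 9 of the 11 genes, all but Mapk4 and Map3k8. None of the 9 held the AP-1 site TGANTCA, the full cAMP response element TGACGTCA or the CArG box that SRF binds, where 8.97%, 2.03% and 1.81% of 27025 genes with a promoter did. The outer letters of the CArG box with any bases between them stood in all 9 and in 75.1% of all genes. The core TGACG, contained in the full cAMP element and added with the strict CArG box after the data were seen, stood in 2 of the 9 (Mapk6 and Mapkapk3) and in 23.0% of all genes. Median GC content was 69.0% in 12 promoters of the 9 genes that rose and 63.7% in 53 promoters of the MAP kinase cascade genes. In all 32851 promoters it was 52.7%. Map3k20, Mapk6 and Mapkapk3 entered the 12 with more than a single promoter each. Neither the 32851 promoters nor the 27025 genes were limited to genes that reached the level tested. The promoters of Mapk6 (chr9:75409967-75410266, minus strand) and of Map3k20 (chr2:72285387-72285686, plus strand) show one with the core, in capitals on either strand, and one without.
Mapk6: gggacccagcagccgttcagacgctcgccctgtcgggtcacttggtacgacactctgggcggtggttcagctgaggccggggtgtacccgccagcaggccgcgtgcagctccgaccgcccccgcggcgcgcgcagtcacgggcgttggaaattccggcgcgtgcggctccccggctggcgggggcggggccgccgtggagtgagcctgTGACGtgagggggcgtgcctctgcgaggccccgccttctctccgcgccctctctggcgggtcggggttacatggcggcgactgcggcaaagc
Map3k20: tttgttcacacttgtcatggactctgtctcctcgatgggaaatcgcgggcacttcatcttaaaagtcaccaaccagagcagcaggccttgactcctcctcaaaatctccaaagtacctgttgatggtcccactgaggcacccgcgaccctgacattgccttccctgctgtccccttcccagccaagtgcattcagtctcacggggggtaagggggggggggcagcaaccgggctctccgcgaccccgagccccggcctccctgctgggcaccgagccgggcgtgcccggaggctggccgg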

How the data were processed

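The authors' deposited table holds FPKM per gene and library, on GRCm38 (mm10) per the submitters' processing notes; the aligner, counter and strand setting are not stated in the labels. Gene lengths in the deposited table and FPKM gave whole reads for 100% of values above 0 (within 0.01 of a read). Values were taken as log2(FPKM + 1), and every gene averaging 1 FPKM or more over 6 libraries entered limma 3.58.1 (lmFit, eBayes with trend; R 4.3.3), Bcas2 cKO minus control, adjusted over all genes tested; intervals are 95%. Fold changes on this scale understate those of low genes. Members and lists were chosen with earlier results of these data known. Counts cover every member, and the values of 1 MAPK are not reported here; the rule for naming took all called members, the 2 of highest level per tier and all called listed genes. All 52 identifiers were in GENCODE M21, 50 with the same start and end. The planned protein stretches were replaced by coding sequence, since protein sequences were not used here. Voom used TMM factors computed from the recovered reads. Python 3.11.15, pandas 2.3.3, numpy 2.4.6, scipy 1.17.1 and matplotlib 3.10.9 were used. Alternatives were other pseudocounts (0.1, 0.01), filters, scalings, variance settings, voom and leaving out libraries.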

Additional observations from a re-analysis of the deposited data

How the results depend on the processing

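Apart from fits that left out a library and the block, the 19 members chosen for naming kept direction and side of the threshold in 211 of 223 results under other settings, lost the call in 12, and none gained one or reversed; Map2k6, outside that rule, passed in 6. The 23 other pathway genes did so in 260 of 273 and lost the call in 13. Members called numbered 11 with the settings of the report, 7 with no filter beyond a mean above 0, 6 at a mean of at least 5 FPKM, where only the 6 of higher level could be tested, 5 rescaled to equal FPKM totals without the hormone genes, and 4 to 8 without a library. Rescaled to the reads outside those genes, an alternative chosen after seeing the data, 11 were called. All genes called numbered 1993, 1144 with no filter, and 878 to 1950 without a library; other pathway genes called numbered 23, 16 with no filter, and 12 to 24 without a library. Except for the filter, the cause was not tested. Mapk4, Map3k20 and Map3k8 were called without each library in turn, and Map4k5 and Mapkapk3 in none of those fits. The replicate block on the numbers 3 and 4 left 1 member (Mapk4), 538 genes and 11 other pathway genes called; all 11 called members stayed higher, with limma adjusted p of 0.022 to 0.30. Bcas2 cKO 5 and control 1 have no partner of their number, so the block fit rests on the libraries numbered 3 and 4. Deviations of same-numbered libraries from their group means correlated at r = -0.15 for number 3 and 0.05 for number 4. So few libraries cannot decide whether the numbers mark pairs, and the main fit did not treat them as pairs. The effect of depth on the calls was not tested.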
